A study of Rattus norvegicus with 4 samples.

Results

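Aminoacyl-tRNA synthetases are the enzymes that load each transfer RNA with its amino acid, the step that fixes the genetic code before a ribosome reads it. Their genes were taken as those whose rat symbol is one capital letter followed by ars, ars1 or ars2, together with Farsa, Farsb and Eprs1. The reference gene table named 37 such genes. Of these, 34 had a probe named through its accession, which are 34 of 16579 genes with a symbol, and they were read by 41 of 45598 probes. Iars2, Lars2 and Mars2, the mitochondrial enzymes for isoleucine, leucine and methionine, had no named probe. By the naming of rat genes, 20 members are cytosolic and 14, whose symbols end in 2, are mitochondrial.

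A mammalian cell keeps separate enzymes for translation in the cytosol and in mitochondria, all of them encoded in the nucleus, except that the products of Gars1 and Kars1 serve both places. Several cytosolic enzymes sit together in the multisynthetase complex, held by the scaffold proteins encoded by Aimp1, Aimp2 and Eef1e1. Many cytosolic synthetase genes are known targets of ATF4, the transcription factor that is translated when uncharged transfer RNA activates the kinase GCN2 (the product of Eif2ak4).

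The cells were NR8383, a continuously growing macrophage line obtained from rat lung lavage, at passage 20. Per the labels, they were seeded for 48 h, and the exposed group had then been kept for 4 h with titanium dioxide (NRCWE001) at a dose of 3 cm2/cm2. RNA of 4 cultures, described as biological replicates, was hybridised to 1 Agilent one-colour array each, all on 1 slide. This group was the only one analysed here, so every value below describes exposed cells and no effect of the particles can be read from it. A line grown in culture is also 1 population of cells and not a sample of lung macrophages.

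The arrays had a 75th percentile of processed spot signal of 433, 347, 554 and 414 units on replicates 1 to 4, and 15314 to 16708 probes per array were well above background. No pair of arrays shared a spot of equal signal, and no spot was saturated. Of 12 macrophage markers, 9 were detected on all 4 arrays, among them the lysosomal gene Cd68, the receptor gene Csf1r and the transcription factor gene Spi1, while Marco, Cd163 and Adgre1 were detected on none. None of 6 lung epithelium markers and none of 3 measured lymphoid markers was detected on all 4 arrays, though Sftpa1 and Cd3d were on some, and of 6 fibroblast and endothelium markers Pecam1 and Cdh5 were. On replicate 1, 5.35% of the well detected spots at array columns 1 to 72 lay more than 0.5 log2 units below the mean of their 4 arrays, against 0.471% beyond column 72. On the other arrays these shares were 0.434% to 1.23% and 0.448% to 0.927%.

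Transcripts of nearly the whole family were present. The 20 cytosolic members were all detected on all 4 arrays, which means that the scanner software set its flag for signal well above background on more than 0.5 of a probe's spots. Of the 14 mitochondrial members 13 were detected on all 4 arrays. Over all genes with a symbol this share was 45.7% (7579 of 16579). In RNA of a whole culture, fewer cells carrying a transcript and less of it per cell cannot be told apart.

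The member not detected was Aars2, which encodes the mitochondrial alanyl-tRNA synthetase. Its processed signal was 14.2, 5.95, 12 and 9.91 units on replicates 1 to 4, with an error of 25.3% to 62.0% of the signal. That error was 14.5% to 16.4% for Ears2, the dimmest detected mitochondrial member, and 10.1% to 10.9% for the brighter Nars1. The more lenient flag, for signal positive and significant against background, was set for Aars2 on all 4 arrays. With that flag all 14 mitochondrial members were detected, so its transcript had only an upper bound by the stricter flag. The share of all genes with the lenient flag was not counted.

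Most cytosolic members lay above the array's 75th percentile, and most mitochondrial members below it. Levels are given here as log2 of the processed signal minus log2 of the 75th percentile of the same array, so a level of 0 is that percentile. On all 4 arrays 13 of 20 cytosolic members lay above it, and 1 of 14 mitochondrial members, where the share over all genes was 21.4% (3546 of 16579). The mitochondrial one was Tars2, for threonine. Eprs1, Cars1 and Sars2 were above it on 3 arrays and Pars2 on 1. The brightness of a probe depends on its sequence as well as on its transcript, so these are counts of probes that crossed a line and not a ranking of transcripts.

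These counts also depended on where the line was drawn. The percentile was taken over spots, and bright probes printed on 10 spots raise it. Taken over distinct probes, a scale added after the data had been seen, the line lay 2.63 log2 units lower, and 20 of 20 cytosolic and 5 of 14 mitochondrial members were above it, against 36.9% of all genes. Without Gars1 and Kars1, which also serve mitochondria, 11 of 18 cytosolic members were above the line over spots.

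**Figure D1:**
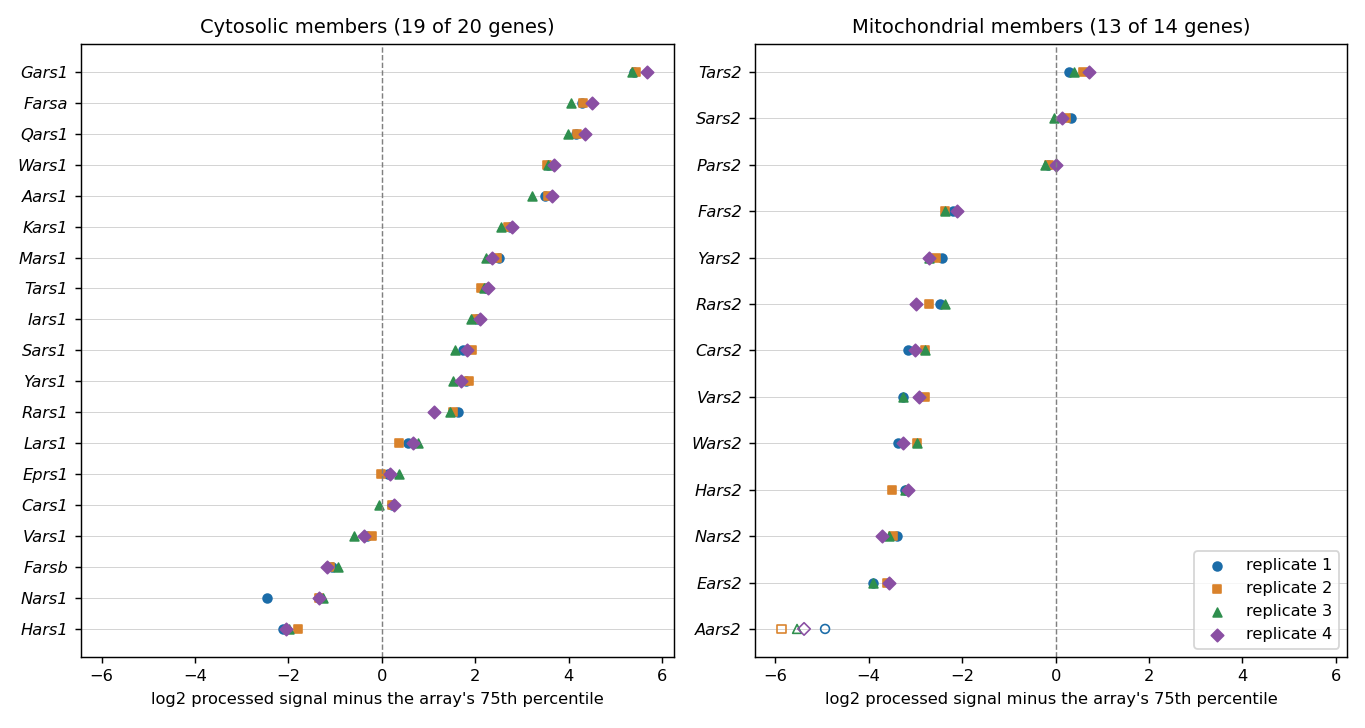
Level of 32 of the 34 members on each of the 4 arrays, as log2 processed signal minus log2 of the array's 75th percentile (dashed line at 0), with cytosolic members on the left and mitochondrial members on the right. Filled symbols are arrays on which the representing probe was detected and open symbols those on which it was not. Of the 20 cytosolic members 13 lay to the right of the line on all 4 arrays, against 1 of 14 mitochondrial members (Tars2), and Aars2 has open symbols throughout.

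Some cytosolic members held the letters of the ATF4 response element in their promoters. RefSeq promoter windows on the rat assembly GRCr8, from 250 bases before to 50 bases after the annotated start, were found for 30 of the 34 members, and Gars1 and Rars1 were among those without one. The letters TGATGNAA, searched on both strands, were in the windows of 7 of 17 cytosolic members (41.2%) and of 0 of 13 mitochondrial members, and in 3.98% of all 33469 windows. At that share fewer than 1 of 13 windows would hold a match, so its absence from the mitochondrial windows is near the background, and the compartments were not tested against each other. For this motif and those below, all windows were taken without matching them to the members in base composition or detection. The windows of the 7 cytosolic members are shown around the first match, because they are the members that hold the element. The match is in capitals, each sequence reads 5′ to 3′ on the strand of the gene, and TTGCATCA is TGATGCAA read from the other strand. At most 30 bases after the start are shown.
Aars1, chr19:55908320-55908427, plus strand: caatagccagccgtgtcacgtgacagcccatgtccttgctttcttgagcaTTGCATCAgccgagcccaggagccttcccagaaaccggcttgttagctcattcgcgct
Cars1, chr1:208225340-208225402, minus strand: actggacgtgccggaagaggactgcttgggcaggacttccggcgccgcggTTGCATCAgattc
Iars1, chr17:15193623-15193726, minus strand: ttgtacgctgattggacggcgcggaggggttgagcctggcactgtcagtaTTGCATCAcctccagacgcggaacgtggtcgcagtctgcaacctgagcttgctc
Mars1, chr7:65023724-65023820, minus strand: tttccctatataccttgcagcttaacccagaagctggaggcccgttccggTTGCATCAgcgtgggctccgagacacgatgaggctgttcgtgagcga
Nars1, chr18:60275753-60275846, minus strand: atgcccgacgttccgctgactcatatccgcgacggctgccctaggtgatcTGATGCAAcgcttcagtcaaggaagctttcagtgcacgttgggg
Tars1, chr2:62114773-62114879, minus strand: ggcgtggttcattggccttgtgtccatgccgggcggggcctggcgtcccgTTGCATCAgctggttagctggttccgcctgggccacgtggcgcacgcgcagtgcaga
Yars1, chr5:146820179-146820208, plus strand: caagcggagctacgagctcagcTGATGCAA

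In these 7 windows all 7 first matches spelled the same 8 letters, on one strand or the other. Their first base lay at -112 in Aars1, -27 in Tars1, -24 in Iars1, -17 in Mars1 and -14 in Nars1, counted from the start, and after it at +18 in Cars1 and +39 in Yars1. Aars1 held another match, TTTCATCA, at +10. A match of letters is a description of the window and not a binding site, and a window without one says nothing about the factor.

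A pair of other short motifs was found in both compartments. The E-box CACGTG, which reads the same on both strands, was in 5 of 17 cytosolic windows (29.4%: Aars1, Farsb, Iars1, Tars1 and Vars1) and in 1 of 13 mitochondrial windows (7.69%: Ears2), against 6.42% of all windows. The letters of the NRF1 site (GCGC, any base, then TGCGC, on both strands), bound by a regulator of nuclear genes for mitochondria, were in 3 cytosolic windows (17.6%: Farsb, Sars1 and Tars1) and 2 mitochondrial ones (15.4%: Pars2 and Wars2), against 4.25% of all windows. No match of one motif overlapped a match of another. The windows of Hars1 and Hars2 lie head to head and share 243 bases.

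**Figure D2:**
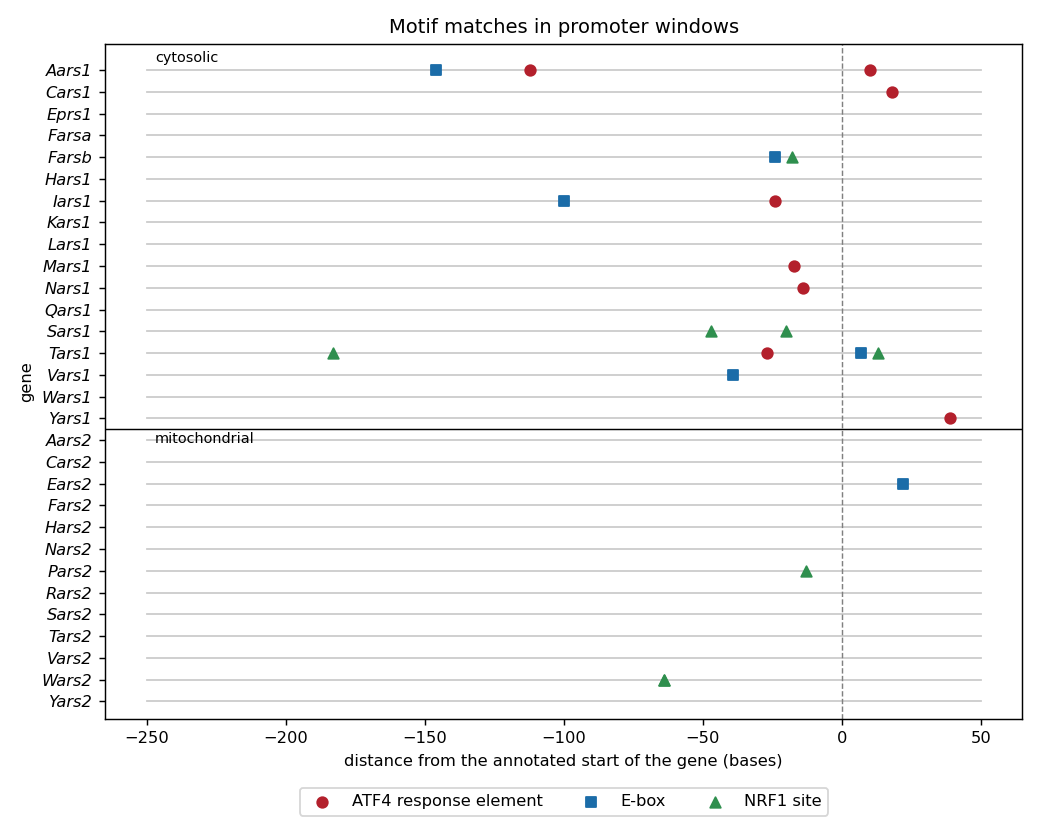
Position of each motif match in the 30 promoter windows, with the annotated start at 0 (dashed line), distance in bases on the horizontal axis and one grey line for each member. The ATF4 response element (circles) is in 7 of 17 cytosolic and 0 of 13 mitochondrial windows, the E-box (squares) in 5 and 1, and the NRF1 site (triangles) in 3 and 2. The 2 matches of Wars2 overlap at 1 position.

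The 8 members of the multisynthetase complex were detected on all 4 arrays, and 6 of them lay above the 75th percentile. Qars1, for glutamine, lay at 4.16, 4.19, 3.97 and 4.34 on replicates 1 to 4 (4.16 ± 0.15, SD, n = 4). Kars1, for lysine, lay at 2.74, 2.69, 2.56 and 2.79 (2.69 ± 0.10). Both genes were lowest on replicate 3 and highest on replicate 4, within 0.4 log2 units.

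Mars1, which charges initiator and elongator methionine transfer RNA, lay at 2.51, 2.46, 2.23 and 2.36 (2.39 ± 0.12). Iars1, for isoleucine, lay at 2.03, 2.02, 1.90 and 2.11 (2.01 ± 0.09). Replicate 3 was the lowest array for both, as for the first pair.

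Rars1, for arginine, went another way, with 1.63, 1.52, 1.46 and 1.11 (1.43 ± 0.23), lowest on replicate 4. Lars1, for leucine and known in mammals as a leucine sensor of the mTORC1 pathway, lay at 0.56, 0.37, 0.78 and 0.67 (0.60 ± 0.18). Eprs1, a fused enzyme for glutamate and proline, lay at 0.13, -0.01, 0.36 and 0.18 (0.17 ± 0.15). Lars1 and Eprs1 were both lowest on replicate 2 and highest on replicate 3, and Eprs1 was below the percentile on replicate 2 alone.

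Of the 12 cytosolic members outside the complex, 7 lay above the 75th percentile on all 4 arrays. These were Gars1 (5.46 ± 0.14, SD, n = 4), for glycine, Farsa (4.28 ± 0.19), the alpha subunit for phenylalanine, Wars1 (3.59 ± 0.07), for tryptophan, Aars1 (3.47 ± 0.19), for alanine, and Tars1, Sars1 and Yars1, for threonine, serine and tyrosine, at 2.21 ± 0.07, 1.77 ± 0.15 and 1.72 ± 0.14. Wars1 is known as an interferon-gamma target in several cell types. Its 4 arrays gave 3.55, 3.54, 3.57 and 3.69, and those of Tars1 2.23, 2.11, 2.20 and 2.28. These were the 2 smallest SDs of the family.

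The 5 others were Cars1, Vars1, Farsb, Nars1 and Hars1. Cars1, for cysteine, lay at 0.21, 0.21, -0.07 and 0.26 (0.15 ± 0.15), which put it below the percentile on replicate 3 alone. Farsb, the beta subunit that pairs with the product of Farsa, lay at -1.07, -1.11, -0.94 and -1.18 (-1.07 ± 0.10). Vars1, for valine, and Hars1, for histidine, lay at -0.38 ± 0.17 and -1.99 ± 0.14.

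The mitochondrial members that were detected lay between -3.74 ± 0.18 (Ears2, for glutamate) and 0.50 ± 0.19 (Tars2). Tars2 gave 0.29, 0.60, 0.38 and 0.72 on replicates 1 to 4, above the percentile on each. Sars2, for serine, gave 0.34, 0.22, -0.04 and 0.14, below it on replicate 3 alone, and Pars2, for proline, gave -0.17, -0.14, -0.23 and 0.01, above it on replicate 4 alone. The other 10 detected members lay below the percentile on every array.

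Rars2, for arginine, and Vars2, for valine, had the largest SDs among the detected mitochondrial members. Rars2 gave -2.48, -2.72, -2.37 and -2.99 (-2.64 ± 0.27), lowest on replicate 4 as was Rars1. Vars2 gave -3.27, -2.80, -3.27 and -2.93 (-3.07 ± 0.24), with replicates 1 and 3 low. Aars2, not well above background, gave -4.93, -5.87, -5.53 and -5.38, values that have only a bound.

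The synthetases fall into 2 structural classes, I and II, which have unrelated catalytic domains. Of 15 class I members all 15 were detected on all 4 arrays, and of 18 class II members 17, with Eprs1 holding a domain of each class. Members above the 75th percentile on all 4 arrays numbered 7 of 15 and 7 of 18, against 21.4% of all genes. The median SD of the detected members was 0.166 and 0.143 log2 units, against 0.163 for all genes.

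Of the 34 members, 7 were read by a pair of probes, and the brighter one stands for the gene in the values above. The pairs differed in what they detected. For Ears2, Fars2 and Pars2 the dimmer probe was not well above background on any array, and it lay 2.99, 4.51 and 6.95 log2 units below the brighter one. The probes of Fars2 carry different accessions, and those of the other 6 genes the same one.

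In the other 4 pairs both probes were detected on all 4 arrays. The dimmer probe of Gars1 gave 0.27, 0.72, 0.37 and 0.30, against 5.39, 5.44, 5.35 and 5.67 for the brighter one. That of Wars1 gave -0.20, -0.25, -0.35 and -0.30, which is below the percentile, while its brighter probe was above it. That of Lars1 gave -2.19, -2.09, -1.77 and -2.32, also below it.

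The pair of Hars1 differed least in brightness, by 0.23 log2 units. Its probes gave -2.12, -1.80, -1.98 and -2.06, and -1.98, -2.00, -2.33 and -2.56. The brighter was lowest on replicate 1 and the dimmer on replicate 4, so the order of the arrays was not shared. Wars1 and Lars1 therefore lie above the line by 1 of their 2 probes, and Gars1 by both.

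**Figure D3:**
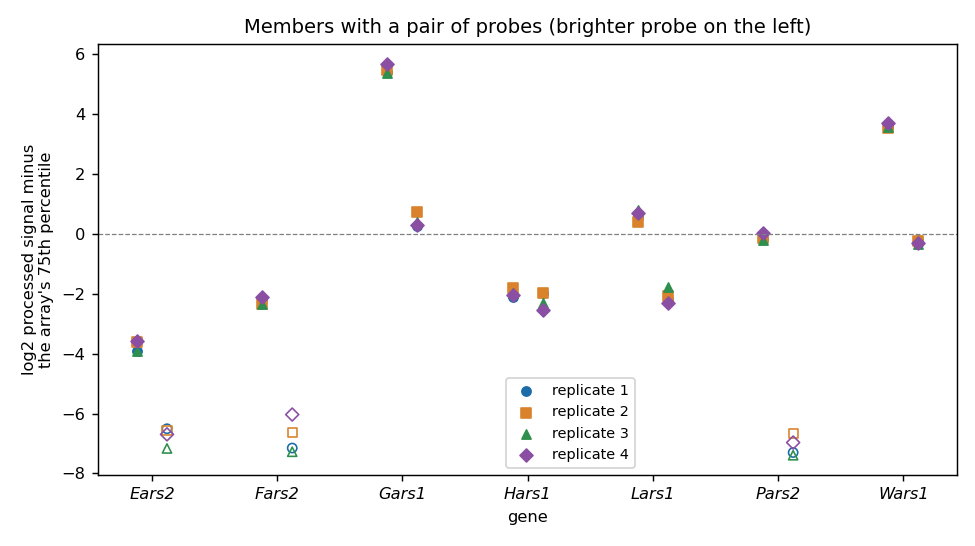
Levels of both probes of the 7 members with a pair of probes, brighter probe on the left of each pair, on the 4 arrays (log2 processed signal minus log2 of the array's 75th percentile, dashed line at 0). Filled symbols are detected and open symbols not detected. The dimmer probes of Ears2, Fars2 and Pars2 have open symbols on all 4 arrays, and the probes of Hars1 lie closest together.

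As processed here, the median spread of the members between the 4 arrays was close to that of all genes. The median SD between arrays was 0.150 log2 units (a fold of 1.11) for the 20 cytosolic and 0.157 for the 13 detected mitochondrial members, against 0.163 for all 7570 genes tested (the representing probe detected on every array). Without replicate 3 the cytosolic median was 0.0890, and it lay above that of all genes without replicate 1 (0.171 against 0.159) and with normexp (0.155 against 0.149). The mitochondrial median lay above that of all genes without replicate 3 (0.179 against 0.136), without replicate 2 (0.181 against 0.172), beyond column 72 (0.164 against 0.154) and with quantile normalization (0.161 against 0.149), and at the same 0.157 without replicate 4. No order between these medians is read here. Each SD was also set against the SD that limma's trended prior gives for genes of like level. The median of this ratio was 0.927 for cytosolic, 0.627 for mitochondrial members and 0.891 for all genes.

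None of the 33 detected members was called more variable than genes of like level (limma prior variance, upper tail of F, adjusted p under 0.05), where 0.515% of all genes were called (39 of 7570). At an unadjusted p under 0.05 there were 2 members of 33, among them Nars1, where 1.65 would pass by chance. Over all genes 505 of 7570 passed that threshold, so the count of members was near the share of all genes. As each culture had its own array, spread between cultures and between arrays cannot be told apart.

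The largest SD belonged to Nars1, the asparaginyl-tRNA synthetase gene. Its processed signal was 78.8, 137, 230 and 163 units, and its level -2.46, -1.34, -1.27 and -1.35 (-1.60 ± 0.57, SD, n = 4). Replicate 1 lay apart below the other 3 arrays, which were within 0.1 log2 units of each other. Without replicate 1 the level was -1.32 ± 0.04. By limma the unadjusted p was 0.000715 and the adjusted p 0.0887.

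The probe of Nars1 was printed on 1 spot, at column 64 of the array, inside the columns where more spots of replicate 1 were low. Whether position on the array had a part in its low value was not tested. The adjusted p of Nars1 was 0.0462 with normexp background correction, 0.0173 without replicate 2, 0.0113 with the percentile over distinct probes and 0.0270 with no filter on dim genes, each of which called it. Over all genes these settings called 206 of 7568, 77 of 7726, 84 of 7570 and 127 of 16579. The other alternatives that tested Nars1 did not call it. Among them were quantile normalization (limma, adjusted p = 0.407), the median of detected probes as scale (0.122) and marked spots kept (0.185). The prior without trend (0.659) and replicate 3 left out (0.251) did not call it either. No other member was called under any alternative.

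The 12 detected members with every spot at columns 1 to 72 had a median deviation of 0.013 on replicate 1, and the 16 with every spot beyond column 72 one of -0.022. Nars1, at -0.85, lay farther below its mean there than any other of these members. Only 5.35% of well detected spots at columns 1 to 72 were low on replicate 1. A median could therefore not show whether position had a part. Repeated spots gave a measure of noise within an array. Gars1, Qars1, Tars1 and Lars1, each on 10 spots, had an SD between spots of 0.027 to 0.10 on single arrays, and an SD between array means of 0.14, 0.15, 0.07 and 0.18. Mars1, Eprs1 and Iars1, each on 2 spots within columns 1 to 72, had spot SDs of 0.240, 0.165 and 0.050 on replicate 1. On the other arrays these were 0.013 to 0.058, 0.006 to 0.107 and 0.0008 to 0.0044. Farsa, with spots on both sides, went the other way, with 0.025 on replicate 1 and 0.078 to 0.130 on the others.

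A single array stood apart by Dixon's ratio of gap to range for 2 of 33 members, against 5.46% of all genes (413 of 7570). These were Nars1, low on replicate 1 (ratio 0.934), and Cars1, low on replicate 3 (0.846).

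**Figure D4:**
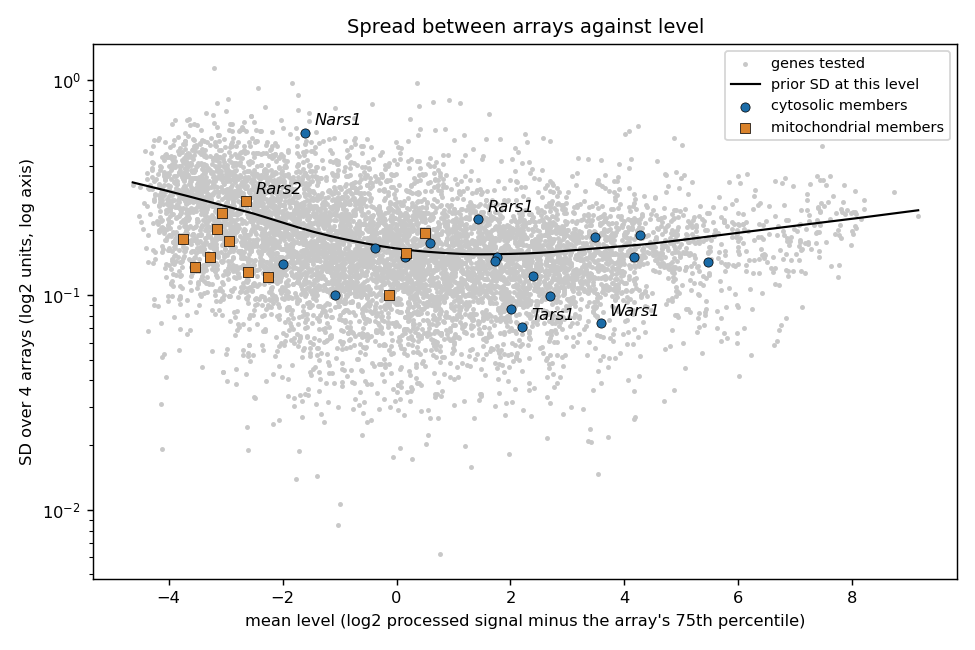
SD between the 4 arrays (log2 units, log axis) against mean level for the genes detected on all 4 arrays (grey), with 19 cytosolic members (circles) and 12 mitochondrial members (squares). The line is limma's prior SD at each level. Among these 31 members, Nars1 lies farthest above it.

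Deviations from each gene's own mean show where the members lay on each array, beside all genes. The median deviation of the 20 cytosolic members was 0.01, 0.02, -0.11 and 0.08 on replicates 1 to 4, and that of the 13 mitochondrial members -0.04, 0.05, -0.10 and 0.12. Over all 7570 genes it was 0.00, 0.02, -0.08 and 0.05. On this scale replicate 3 had the lowest median and replicate 4 the highest, for both compartments and for all genes, but the order depended on the processing.

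Replicate 3 was the lowest array for 11 of 20 cytosolic and 4 of 13 mitochondrial members, and for 3430 of all 7570 genes. Replicate 4 was the highest for 9 and 6 of them, and for 2543 of all genes. With spots beyond column 72 alone, replicate 1 had the lowest median in both compartments. It was -0.04 there against -0.02 on replicate 3 for 11 cytosolic members, and -0.10 against -0.07 for the mitochondrial ones. The highest mitochondrial median was on replicate 2 with normexp (0.07, against 0.04 on replicate 4) and without replicate 1 (0.08 against 0.07).

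Among the 7 cytosolic members with the ATF4 response element, 5 lay above the 75th percentile on all 4 arrays, and their median SD was 0.144. Their median deviation was 0.02, 0.07, -0.16 and 0.10, with 6 of 7 below their mean on replicate 3. Of the 10 cytosolic members with a window and no match, 6 lay above the percentile, and their median SD was 0.150. Their median deviation was -0.01, 0.01, -0.08 and 0.07, with 6 of 10 below their mean on replicate 3. Over all genes 4939 of 7570 were below their mean there. That share was near 6 of 10 and lower than 6 of 7, and both groups are small. The difference between these groups was not tested.

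Other genes of the amino acid response, such as transporters, synthesis enzymes and stress regulators that ATF4 is known to induce, were mostly detected, with 20 of 22 measured on all 4 arrays. Atf4 itself lay at 4.97 ± 0.13 (SD, n = 4), Eif2ak4, the sensor of uncharged transfer RNA, at -3.22 ± 0.69, and Asns, asparagine synthetase, at 3.92 ± 0.15. Stc2 was not well above background on any array, and Slc7a1 had no named probe.

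The median deviation of this list was -0.15, 0.12, -0.15 and 0.18 on replicates 1 to 4. On replicate 1, 17 of its 20 detected genes were below their mean, beside 8 of 20 cytosolic and 7 of 13 mitochondrial synthetase genes and 3677 of all 7570 genes. Its median SD was 0.206, against 0.163 for all genes. Of its 20 detected genes 1 was called more variable, against 39 of all 7570. The gene called was Aldh18a1, a proline synthesis gene, lowest on replicate 1 at 0.27 against 0.97 to 1.38 on the others (limma, adjusted p = 0.0207). With quantile normalization or the prior without trend 0 of 7570 genes were called, so this call was not kept there. Whether position on the array had a part in its low value was not tested. Aldh18a1 was named for its call, and the list as a whole was not tested against the synthetases.

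**Figure D5:**
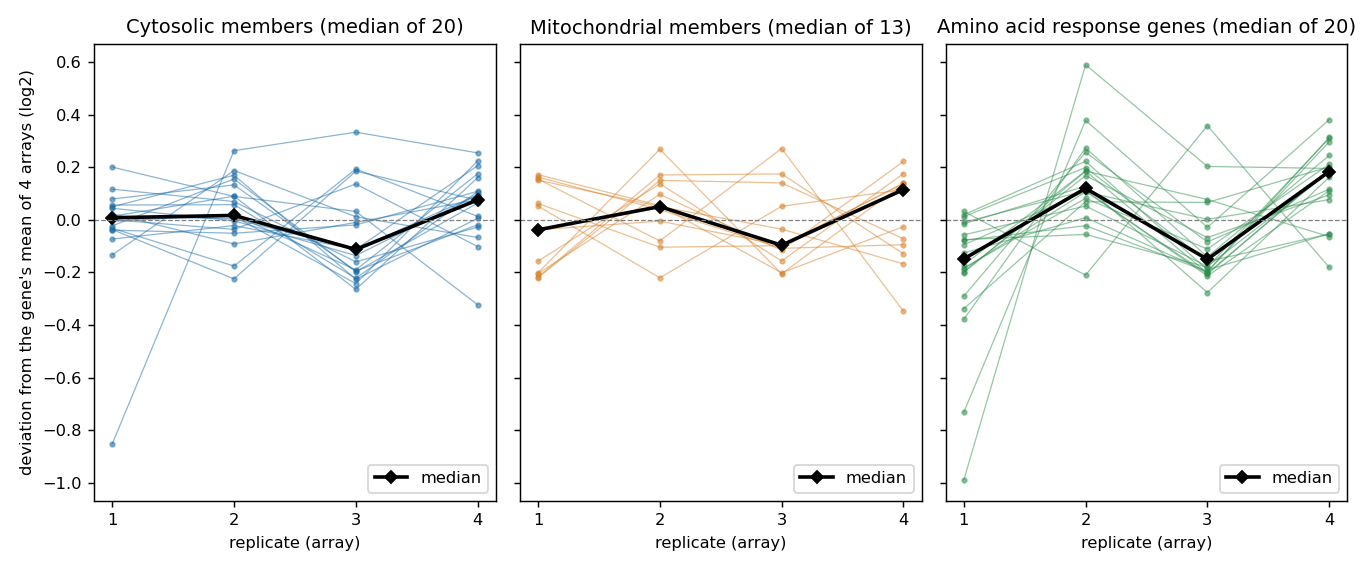
Deviation of each gene from its own mean of the 4 arrays (log2 units) for cytosolic members, detected mitochondrial members and detected amino acid response genes, with thin lines for 19 of 20, 12 of 13 and 20 of 20 genes and the median of all of them as a thick black line. The medians on replicate 3 are -0.11, -0.10 and -0.15 and those on replicate 4 are 0.08, 0.12 and 0.18, an order that depended on the processing. The cytosolic line that drops to -0.85 on replicate 1 is Nars1.

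Genes that work beside the synthetases were described in the same way. The 7 scaffold and elongation factor genes were detected on all 4 arrays, with 6 above the 75th percentile and none called. Of the scaffold genes Aimp1 lay at 2.54 ± 0.10 (SD, n = 4), Aimp2 at 2.79 ± 0.25 and Eef1e1 at -0.56 ± 0.36. Eef1e1 was the one below the percentile, with -0.19 on replicate 1 and -1.04 on replicate 4.

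In mitochondria, glutaminyl transfer RNA is made from a mischarged form by an amidotransferase, since mammals have no separate mitochondrial gene for glutamine. Of its subunit genes Gatc lay at 0.25 ± 0.13 and Qrsl1 at -0.87 ± 0.11, and Gatb had no named probe. Mtfmt, which formylates the initiator methionyl transfer RNA, lay at -3.36 ± 0.28. All 3 measured genes were detected on all 4 arrays.

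Of 8 measured mitochondrial translation factors 5 were detected on all 4 arrays, with Tufm at 4.22 ± 0.15, Tsfm at -0.86 ± 0.11 and Gfm1 at 1.94 ± 0.08, while Mtif2, Mtrf1l and Mrrf were detected on 1 to 3 arrays. Of 7 measured editing and related enzymes 6 were detected on all 4 arrays. Dtd2, a deacylase that removes wrongly attached residues, lay at -2.23 ± 0.14, Aarsd1, a free editing protein for alanyl transfer RNA, at -3.67 ± 0.45, and Sepsecs, which completes selenocysteinyl transfer RNA, at -2.17 ± 0.13. Prorsd1, the seventh, was detected on 3 arrays.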

How the data were processed

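RNA of 4 cultures, 1 group, was measured on 4 Agilent one-colour arrays. Groups and replicate numbers came from the sample titles. The deposited intensity used was the processed signal of each spot. Per the file headers, Agilent Feature Extraction 11.0.1.1 had subtracted background and removed spatial trends, with no scaling across arrays. The submitters' processing notes name the same tool.

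For a level, log2 of that array's 75th percentile was subtracted from log2 of the signal. The percentile was over the 58717 spots that are not controls, less those marked as outliers (634 to 669 per array), which were dropped. The 82 member spots lost 2 on replicate 1 and 1 on replicate 4. Spots of a probe were averaged, and the brightest probe stood for a gene. Of 45598 probes, 21109 were named by accession, without version, through the RefSeq gene table of GRCr8. A gene was detected where any of its probes was. As the array's grid was annotated on an older rat build, probe positions are not given.

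Each gene's variance over 4 arrays (3 degrees of freedom) was divided by limma's trended, robust prior variance (24.3 prior degrees of freedom). The p-value, from the upper tail of F, was Benjamini-Hochberg adjusted over 7570 genes, and a gene was called below 0.05. The tools were R 4.3.3, limma 3.58.1, data.table (version 1.17.8), matrixStats 1.5.0, jsonlite 2.0.0, Python 3.11.15, pandas 2.3.3 and matplotlib 3.10.9. The number of arrays limits the precision.

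The members and lists were chosen with earlier results of these data known. Values on each array are given for complex members, for the 5 largest and 5 smallest SDs, for members not detected on all 4 arrays, for disagreeing probes and for arrays apart by Dixon's ratio. Not every member named by it is reported here. Other lists are described by counts and by the first 3 genes detected on all 4 arrays. The alternatives were other background correction, scale, probe choice, detection flag, filter, prior and spot selection, and each replicate left out.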

Additional observations from a re-analysis of the deposited data

Results flagged for a closer look

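For 2 of 33 members 1 array lay apart from the rest, with a ratio of gap to range above Dixon's 95% critical value for 4 samples. For Nars1 the ratio was 0.934, with replicate 1 low, and for Cars1 it was 0.846, with replicate 3 low. Chance gives about 5% of groups such a ratio, and 5.46% of all genes had one. Nars1 rests on 1 spot on each array, at column 64, where replicate 1 had more low spots than elsewhere, and the part of this in its low value was not tested. Cars1 lay at -0.07 on replicate 3 against 0.21 to 0.26 on the others, with limma's unadjusted p at 0.479, so its SD of 0.15 was not large for genes of like level.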

How the results depend on the processing

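Of 155 recomputed summary values, 141 kept their size within the limits set for them and 14 did not. The detection counts stayed at 20 cytosolic members with each replicate left out and at 13 mitochondrial ones, and were 14 with the lenient flag. The count of members called more variable, 0, became 1 (Nars1) with normexp, with the percentile over distinct probes, with no filter on dim probes and without replicate 2, and ranged from 0 to 1 when each replicate was left out. Over all genes 39 were called, against 206 with normexp, 84 with the percentile over distinct probes, 21 beyond column 72, 27 with marked spots kept, 127 with no filter, 9 without the robust prior, and 0 with quantile normalization or without the trend (491 and 467 at an unadjusted p under 0.05). Without replicates 1 to 4 they were 32, 77, 10 and 16.

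With normexp the mitochondrial median SD was 0.128 and 2 mitochondrial members lay above the 75th percentile. With the percentile over distinct probes 20 cytosolic and 5 mitochondrial members did, and beyond column 72, 8 of 11 cytosolic members. With spots beyond column 72 the cytosolic median deviation on replicate 3 was -0.019. With replicates left out in turn, the median SD ran from 0.0890 (without replicate 3) to 0.171 for cytosolic and from 0.139 to 0.181 for mitochondrial members, and members above the percentile from 13 to 14 and from 1 to 2. The cause of these shifts was not tested. Of 362 single-member levels 133 moved by more than their SD between arrays, with normexp and the distinct-probe scale moving the median of all genes by 2.33 and 2.63 log2 units. No paired analysis was possible because the arrays form 1 group. Dim probes limit what can be said of Aars2, and 4 arrays limit every SD.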
